A study of Mus musculus with 9 samples.

Results

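The genes of the translation initiation factors were followed in mouse ES cells through 3 h of Thr or Cys starvation. They were taken by name: each protein-coding gene of the GRCm38 annotation (GENCODE M21) with a symbol beginning Eif1, Eif2, Eif3, Eif4, Eif5 or Eif6 was included, except the eIF2α kinases Eif2ak1, Eif2ak2, Eif2ak3 and Eif2ak4. The count table held 49 of the 51 genes that this rule finds, among 20189 genes in all and 14757 protein-coding genes. Eif4e1b and Eif4ebp3 were not analysed here.

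E14 cells, an established mouse ES cell line, were wild type in all groups and were starved of Thr, starved of Cys or left unstarved in medium with all AAs, with 3 libraries in each group. The comparison asks how the mRNA response to the lack of Thr differs from that to the lack of Cys. The labels describe the medium (dialyzed serum, β-mercaptoethanol, leukemia inhibitory factor) for Arg and Leu starvation only, so the exact medium of the Thr- and Cys-starved cells is not given in the sources used here. Poly(A) RNA was sequenced as read pairs and counted per gene, and the total count per library ranged from 48763102 to 74962733. The labels do not say whether the 3 libraries of a group came from separate cultures, so the p-values measure only the spread between these libraries, which may be technical.

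Translation initiation loads the small ribosomal subunit with methionyl initiator tRNA, carries it to the capped end of an mRNA and moves it to a start codon. eIF2 brings the tRNA with GTP, eIF2B recharges eIF2, eIF3 scaffolds the small subunit, the eIF4 proteins bind the cap and unwind the mRNA, and eIF1, eIF1A and eIF5 control how strictly the start codon is read. In AA starvation the kinase GCN2 phosphorylates eIF2α, which blocks eIF2B and lowers initiation at most mRNAs, while reduced mTORC1 activity lets the eIF4E-binding proteins take eIF4E away from eIF4G. These controls act on proteins, whereas the data here are the mRNA levels of the factors.

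The ES cell markers were high in all libraries, with a summed level of 3910 to 3930 CPM (counts relative to the TMM-scaled size of the library) in unstarved, 3730 to 3750 in Cys-starved and 4140 to 4220 CPM in Thr-starved libraries for 8 of 8 markers. Markers of fibroblast feeders (4 of 5 in the table) summed to 13.3 to 13.6, 12 to 14.9 and 9.48 to 10.5 CPM, and those of endoderm (4 of 4) to 5.24 to 5.82, 7.13 to 8.79 and 4.43 to 4.97 CPM, in the same order. Neuroectoderm markers (3 of 3) summed to 19.2 to 20.4, 23.8 to 25.3 and 27.5 to 31.5 CPM, and mesoderm markers (3 of 3) to 3.39 to 4.68, 3.89 to 4.0 and 1.96 to 2.33 CPM. No marker in the table was at 0, and the part of these shifts in the results was not tested. In bulk RNA, fewer cells of a type and less RNA per cell cannot be told apart. Even counts made up 67.8% of the 28226 values from 1 to 20, an excess that would arise if both reads of a pair were counted separately. This was not tested, and where it holds, the counts and totals given here are of reads and exceed the number of fragments.

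The factor mRNAs moved in both directions in both starvations. With Thr starvation Eif1 rose 2.51-fold and Eif1b 2.07-fold, while Eif3l fell by 51.4%. With Cys starvation Eif5 fell by 52.2%, Eif2s2 fell by 33.3% and Eif3d fell by 30.9%, and the largest increase was that of Eif4ebp1, 1.28-fold. The family as a whole took 1.67% to 1.76% of the counts of each library, between 16190 and 16290 CPM in the Cys-starved, between 17060 and 17430 CPM in the unstarved and between 17830 and 17990 CPM in the Thr-starved libraries, so its summed level did not overlap between the groups.

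With Thr starvation 20 of the 49 genes were called higher and 20 lower (adjusted p of 0.05 or less), and 9 were not called. Over all 20143 genes tested 63% were called, 31.1% higher and 31.9% lower, and over the 11410 genes that averaged 5 CPM or more, as 48 of the 49 factors did, 80.6% were called (41.5% higher and 39.1% lower). The 81.6% of the factors that were called is close to the share among genes at this level. The median log2 fold change was -0.03 for the factors and -0.0159 for all genes tested (0.0111 for genes that averaged 5 CPM or more). A called change of 0.25 or more on the log2 scale was seen for 13 factors upward and 11 downward, where 24.5% and 25.4% of all genes tested, and 29.9% and 27.7% of genes that averaged 5 CPM or more, changed as much.

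With Cys starvation 9 factors were called higher and 22 lower, and 18 were not called. Here 36.3% of all genes tested were called, 17.5% higher and 18.8% lower, and 55% of genes that averaged 5 CPM or more (24.6% higher and 30.5% lower), against 63.3% of the factors. The median log2 fold change was -0.07 for the factors and 0.0068 for all genes (-0.0162 for genes that averaged 5 CPM or more). Called changes of 0.25 or more were seen for 2 factors upward and 6 downward, beside 9.86% and 6.86% of all genes tested and 11.1% and 9.35% of those that averaged 5 CPM or more. Scaling by the size factors deposited with the data moved the share of higher calls among all calls from 48.2% to 36.8%, and gave 9 factors higher and 30 lower.

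Both starvations were compared with the same unstarved libraries, so their difference was tested directly. Between Thr- and Cys-starved cells 25 factors were higher with Thr starvation and 17 lower (85.7% called). Of all genes tested 62% were called, 30.4% higher and 31.6% lower, and of genes that averaged 5 CPM or more 80.6%, with 43.7% higher and 36.9% lower. The median difference was 0.10 for the factors and -0.0183 for all genes on the log2 scale (0.0396 for genes that averaged 5 CPM or more). It was called and 0.25 or more for 16 factors upward and 10 downward, beside 22% and 25.7% of all genes tested and 28.9% and 26.4% of those that averaged 5 CPM or more. The libraries of the compared groups did not overlap for 42 factors with Thr starvation, 33 with Cys starvation and 42 between the starvations, where 66.5%, 46.4% and 65.8% of all genes tested and 82%, 63.7% and 81.6% of genes that averaged 5 CPM or more did not overlap.

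**Figure D1:**
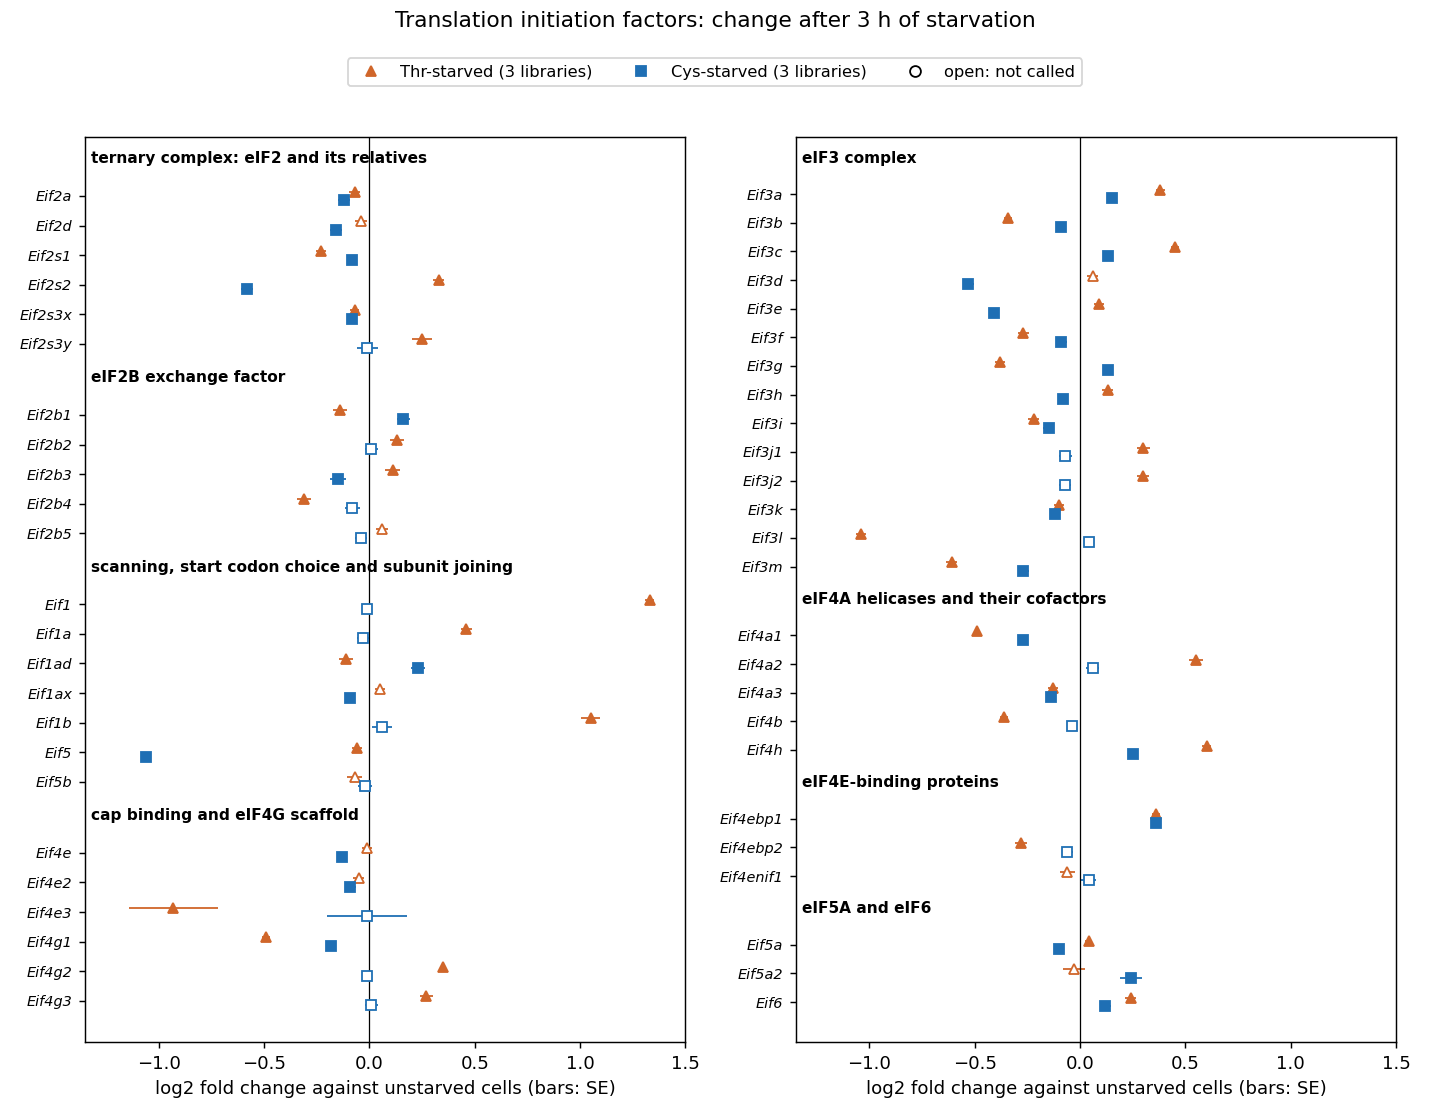
Log2 fold change of each of the 49 factors against unstarved cells (x axis), by role, with triangles for Thr-starved and squares for Cys-starved cells (3 libraries each). Bars are SE and open symbols were not called. Eif1 at 1.33 and Eif3l at -1.04 stand out with Thr starvation, and Eif5 at -1.06 with Cys starvation.

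Promoter sequences were available for 39 of the 49 genes (51 windows around annotated starts, RefSeq, GRCm38.p6). Eif1a, Eif2b3, Eif3e, Eif3h, Eif3i, Eif3j2, Eif4e3, Eif4ebp1, Eif4g2 and Eif6 had no window, so none of these was searched for motifs. Those of 4 genes with large changes, chosen after their values were seen, are given up to the base before the annotated gene start, 5′ to 3′ on the strand of the gene, with capitals for an AP-1 site (TGANTCA) or an E-box (CACGTG). The stretch upstream of Eif1 is chr11:100319699-100319884 on the plus strand, that of Eif3l chr15:79074973-79075178 on the plus strand, that of Eif4h chr5:134639491-134639659 on the minus strand and that of Eif5 chr12:111537851-111538015 on the plus strand.
Eif1: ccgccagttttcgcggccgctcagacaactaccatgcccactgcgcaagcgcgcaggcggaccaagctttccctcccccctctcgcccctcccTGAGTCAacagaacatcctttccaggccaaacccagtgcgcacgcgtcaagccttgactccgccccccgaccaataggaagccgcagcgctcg
Eif3l: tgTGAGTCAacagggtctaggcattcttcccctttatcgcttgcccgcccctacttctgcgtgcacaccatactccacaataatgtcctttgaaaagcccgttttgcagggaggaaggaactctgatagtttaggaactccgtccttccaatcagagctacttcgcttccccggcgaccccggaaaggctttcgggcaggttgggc
Eif4h: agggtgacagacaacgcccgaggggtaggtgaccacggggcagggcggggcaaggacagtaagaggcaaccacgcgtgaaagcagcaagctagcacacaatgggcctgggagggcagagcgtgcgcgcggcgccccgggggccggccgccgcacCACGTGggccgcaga
Eif5: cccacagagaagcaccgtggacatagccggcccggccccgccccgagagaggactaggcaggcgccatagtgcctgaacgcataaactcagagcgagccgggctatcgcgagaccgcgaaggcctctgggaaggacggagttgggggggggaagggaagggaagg
The same AP-1 letters stood upstream of Eif1, which rose with Thr starvation, and of Eif3l, which fell, and the Eif5 window held none of the motifs searched. On both strands, the E-box was found in 23.5% of the factors' windows (12 of 51, from 10 genes) and in 7.15% of all 32851 windows. Windows of 1 gene overlap each other, and this share was not tested. All windows were counted whether or not their gene was expressed here, so they are no matched comparison for the factors, which were expressed. The 10 genes with an E-box were Eif1b, Eif3a, Eif3f, Eif3k, Eif4a1, Eif4e, Eif4g1, Eif4h, Eif5a and Eif5a2, and 4 of them were called higher and 4 lower with Thr starvation, and 3 higher and 6 lower with Cys starvation. Of all genes tested 63% were called with Thr and 36.3% with Cys starvation, and of genes that averaged 5 CPM or more 80.6% and 55%. An AP-1 site was in 7.84% of the factors' windows and 7.81% of all windows. The factors with this site were Eif1 and Eif3j1, which rose with Thr starvation, and Eif3f and Eif3l, which fell. The C/EBP-ATF composite element (TGATGNAA) was in 1.96% against 3.97%, and the cAMP response element (TGACGTCA) was in 0 of 51 windows against 1.79% of all windows.

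The counts by role given here and below stand beside the share called among genes that averaged 5 CPM or more. This share was 80.6% with Thr and 55% with Cys starvation. Among the factors of scanning, start codon choice and subunit joining (7 genes), 3 rose, 2 fell and 2 were not called with Thr starvation, and 1 rose, 2 fell and 4 were not called with Cys starvation. Eif1 (ENSMUSG00000035530, chr11:100319885-100322096 in GRCm38, as for all genes here) encodes the factor that keeps the small subunit scanning and rejects poor start codons. It stood at 361, 375 and 361 CPM in the unstarved, at 362, 369 and 358 CPM in the Cys-starved and at 922, 897 and 941 CPM in the Thr-starved libraries. All Thr-starved libraries were far above the other 6, which overlapped. It rose by 1.33 on the log2 scale with Thr starvation (adjusted p = 2.4e-22, SE 0.022) and stood at -0.01 with Cys starvation (adjusted p = 0.77, SE 0.022), with a direct difference of 1.34 (adjusted p = 5.6e-22, SE 0.022). Of its 43-base stretches 20.6% also occur in other genes, among them Emd and Gm10157.

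Eif1b encodes a close relative of eIF1 and was expressed at a much lower level. It was at 22.3, 22.3 and 21.6 CPM in unstarved, at 22.7, 24.5 and 22.0 CPM in Cys-starved and at 45.2, 44.2 and 47.3 CPM in Thr-starved libraries. The Thr-starved libraries again stood apart from all others, with a log2 fold change of 1.05 (adjusted p = 3.1e-15, SE 0.045) against 0.06 with Cys starvation (adjusted p = 0.32, SE 0.047). Per kb of exon, Eif1 was at 174 CPM and Eif1b at 19.6 CPM in unstarved cells, and at 438 and 40.5 CPM in Thr-starved cells. Eif1a, one of the genes for eIF1A, which works with eIF1 in scanning, also rose with Thr starvation, by 0.46 on the log2 scale (adjusted p = 6.1e-13, SE 0.027), from a mean of 252 to 347 CPM. Its X-linked copy Eif1ax did not pass the test (0.05, adjusted p = 0.071, SE 0.024), although it did with DESeq2 (0.058), RLE normalization (0.057), filterByExpr (0.056) or without Thr-starved replicate 1 (0.071). With Cys starvation Eif1ax fell by 0.09 on the log2 scale (adjusted p = 0.0044).

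Eif5 (ENSMUSG00000021282, chr12:111538016-111546752) encodes the protein that triggers GTP hydrolysis by eIF2 at the start codon and acts against eIF1 in start codon choice. Its level was 380, 362 and 369 CPM in unstarved, 350, 355 and 360 CPM in Thr-starved and 175, 179 and 177 CPM in Cys-starved libraries. The Cys-starved libraries lay at less than the lowest of the other 6 by a wide margin and within 4 CPM of each other. The log2 fold change was -1.06 with Cys starvation (adjusted p = 3.9e-19, SE 0.023), and the direct difference of Thr from Cys starvation was 1.01 (adjusted p = 9.2e-20, SE 0.023). With Thr starvation Eif5 was called lower by a small amount (-0.06, adjusted p = 0.031, SE 0.023), and this call was lost without unstarved replicate 1 (-0.035) or 3 (-0.061) and without Thr-starved replicate 1 (-0.043) or 2 (-0.058). Eif5 hosts the small nucleolar RNA gene Snora28, and 3.09% of its 43-base stretches occur in other genes.

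Eif1ad, named for its eIF1A-like domain, changed in opposite directions. It was at 67.1, 71.7 and 69.8 CPM in unstarved, 83.6, 83.0 and 78.7 CPM in Cys-starved and 63.8, 63.4 and 66.1 CPM in Thr-starved libraries. The Cys-starved libraries were the highest and the Thr-starved the lowest, without overlap between any groups. It rose by 0.23 on the log2 scale with Cys starvation (adjusted p = 6.5e-06, SE 0.033) and was lower by -0.11 with Thr starvation (adjusted p = 0.0075, SE 0.034), a call lost without unstarved replicate 2 (-0.079). Its exons overlap those of Banf1 on the other strand by 428 bases. Eif5b, the GTPase of subunit joining, was called in neither starvation (-0.07 with Thr and -0.02 with Cys starvation, SE 0.034 each). Its Thr value was called without Cys-starved replicate 1 (-0.072) and in the fit of only the 2 groups compared (-0.067). The direct difference of Thr from Cys starvation (-0.05, not called) was called without Cys-starved replicate 1 (-0.11). That library was at 245 CPM, against 278 and 279 CPM in the other Cys-starved libraries. The exons of Eif5b overlap those of Rev1 on the other strand by 1643 bases.

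**Figure D2:**
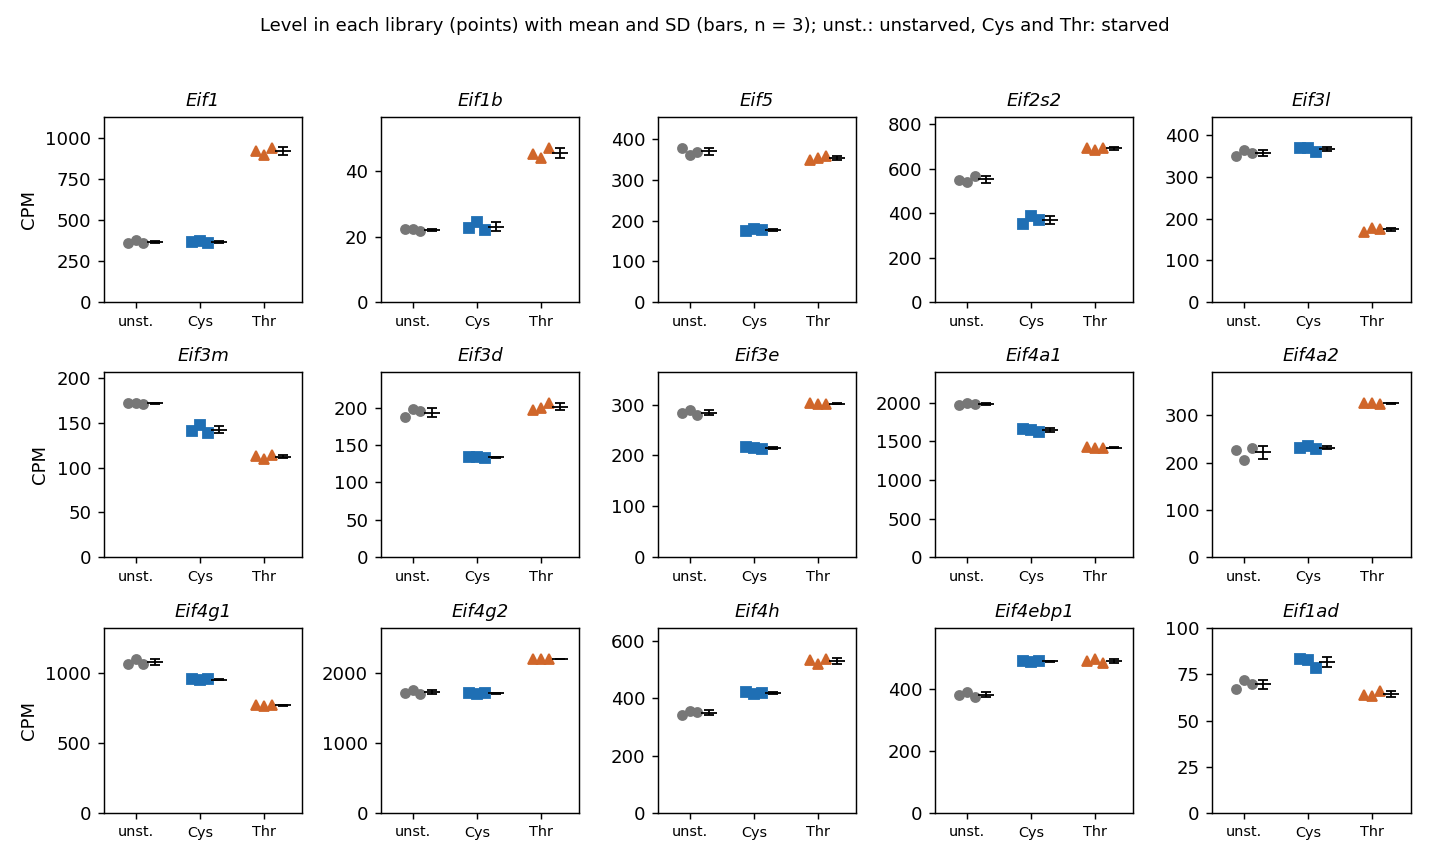
CPM in each of the 9 libraries for 15 factors, chosen after their values were seen (points, with mean and SD of 3 libraries beside them; each y axis starts at 0). Eif1 and Eif1b are high in the Thr-starved libraries alone, and Eif5 and Eif3d low in the Cys-starved libraries alone.

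In the group of eIF2 and its relatives (6 genes), 2 rose, 3 fell and 1 was not called with Thr starvation, and none rose, 5 fell and 1 was not called with Cys starvation. Eif2s2 (ENSMUSG00000074656, chr2:154871410-154892935) encodes eIF2β, the subunit that contacts both eIF5 and the catalytic part of eIF2B. It stood at 548, 540 and 569 CPM in unstarved, 351, 385 and 369 CPM in Cys-starved and 696, 686 and 693 CPM in Thr-starved libraries. The 3 groups were fully separated, with the unstarved libraries in the middle. It fell by 0.58 on the log2 scale with Cys starvation (adjusted p = 1.2e-13, SE 0.027) and rose by 0.33 with Thr starvation (adjusted p = 2.4e-10, SE 0.026), and was 1.88-fold higher in Thr- than in Cys-starved cells (log2 0.91, adjusted p = 5.3e-18, SE 0.027). Other genes share 11.1% of its 43-base stretches.

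The other subunits moved less. Eif2s1, the gene of eIF2α, fell from a mean of 292 CPM to 275 with Cys and 248 CPM with Thr starvation, by 0.08 and 0.23 on the log2 scale (SE 0.023 each, adjusted p = 0.0059 and 6e-09). Eif2s3x, the X-linked gene of eIF2γ, fell slightly in both starvations, by 0.08 with Cys (adjusted p = 0.011) and 0.07 with Thr (adjusted p = 0.0099). The Cys call was lost without unstarved replicate 2 (-0.062) or Cys-starved replicate 3 (-0.061), and the Thr call without unstarved replicate 2 (-0.049) or Thr-starved replicate 1 (-0.047). Eif2s3y, its Y-linked copy, rose by 0.25 with Thr starvation alone (adjusted p = 0.00014). The β and α subunits of 1 complex thus differed in direction with Thr starvation: per kb of exon the ratio of Eif2s2 to Eif2s1 was 1.36, 1.35 and 1.45 in unstarved, 0.92, 1.04 and 0.984 in Cys-starved and 2.07, 1.98 and 2.08 in Thr-starved libraries. Eif2a and Eif2d, which can deliver initiator tRNA without eIF2, fell with Cys starvation by 0.12 and 0.16 on the log2 scale (adjusted p = 0.0014 and 7.2e-05). With Thr starvation Eif2a fell by 0.07 (adjusted p = 0.027), a call lost without unstarved replicate 2 (-0.046) and without Thr-starved replicate 1 (-0.051) or 3 (-0.064), and Eif2d stood at -0.04 (adjusted p = 0.23).

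eIF2B, the exchange factor that phosphorylated eIF2 inhibits, has 5 subunits, and their mRNAs stayed within 0.31 of the unstarved level on the log2 scale. With Thr starvation 2 rose and 2 fell, and with Cys starvation 1 rose and 1 fell. Eif2b1, which encodes a regulatory subunit, was at 75.1, 75.9 and 75.9 CPM in unstarved, 84.4, 82.2 and 86.4 CPM in Cys-starved and 67.7, 71.3 and 66.5 CPM in Thr-starved libraries. Eif2b3, which encodes a subunit of the catalytic part, showed the opposite order, with 46.0, 47.0 and 46.3 CPM in unstarved, 41.6, 43 and 41.3 CPM in Cys-starved and 48.9, 48.7 and 52.6 CPM in Thr-starved libraries. Neither gene overlapped between any groups. Eif2b1 rose by 0.16 with Cys (adjusted p = 0.00032, SE 0.031) and fell by 0.14 with Thr starvation (adjusted p = 0.00041, SE 0.032), while Eif2b3 fell by 0.15 with Cys (adjusted p = 0.0031, SE 0.037) and rose by 0.11 with Thr starvation (adjusted p = 0.012, SE 0.037), a call lost without Thr-starved replicate 3 (0.072).

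Eif2b5, the gene of the catalytic ε subunit and the most abundant of this group, was at 133, 141 and 139 CPM in unstarved, 136, 134 and 131 CPM in Cys-starved and 140, 141 and 149 CPM in Thr-starved libraries. The unstarved range overlapped both others, and neither starvation passed the test (0.06 with Thr, adjusted p = 0.1, and -0.04 with Cys, adjusted p = 0.31). Without unstarved replicate 2 the Thr value was 0.081 and was called, and the direct difference of 0.10 (adjusted p = 0.0066) was lost without Thr-starved replicate 3 (0.068). With the deposited size factors the Cys value was -0.082 and was called. Eif2b4, another regulatory subunit, fell by 0.31 with Thr starvation (adjusted p = 6e-08, SE 0.035), and Eif2b2 rose by 0.13 (adjusted p = 0.0015, SE 0.033).

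The 14 genes of eIF3, the largest initiation factor, did not move as 1 unit. With Thr starvation 6 rose, 7 fell and 1 was not called, over a range of -1.04 to 0.45 on the log2 scale, and with Cys starvation 3 rose, 8 fell and 3 were not called, over -0.53 to 0.15. The summed level of the 14 genes stayed between 4420 and 4669 CPM in all 9 libraries.

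Eif3l (ENSMUSG00000033047, chr15:79075179-79094405) encodes a peripheral subunit that pairs with eIF3k. It was at 351, 365 and 358 CPM in unstarved, 370, 371 and 361 CPM in Cys-starved and 169, 177 and 176 CPM in Thr-starved libraries. The Thr-starved libraries were well below all others, and the unstarved and Cys-starved libraries overlapped. On the log2 scale Eif3l stood at -1.04 with Thr (adjusted p = 5.8e-20, SE 0.024), 0.04 with Cys starvation (adjusted p = 0.24, SE 0.023) and -1.08 between them (adjusted p = 4.4e-20, SE 0.024). Its partner Eif3k fell by only 0.12 with Cys (adjusted p = 0.00022) and 0.10 with Thr starvation (adjusted p = 0.00035). Other genes hold 0.304% of the 43-base stretches of Eif3l.

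Eif3m fell in both starvations, from 172, 172 and 171 CPM in unstarved to 141, 147 and 139 CPM in Cys-starved and 113, 110 and 114 CPM in Thr-starved libraries. The 3 groups did not overlap, and the decrease was 0.27 on the log2 scale with Cys (adjusted p = 2.7e-08, SE 0.026) and 0.61 with Thr starvation (adjusted p = 3.6e-15, SE 0.026). Other genes hold 21.5% of its 43-base stretches, mostly the pseudogene Gm7658 and the overlapping Ccdc73.

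Eif3d and Eif3e encode subunits that bind each other, and eIF3d can itself bind the cap of some mRNAs. Eif3d stood at 187, 198 and 195 CPM in unstarved, 134, 134 and 133 CPM in Cys-starved and 197, 200 and 206 CPM in Thr-starved libraries. Eif3e stood at 284, 289 and 279 CPM in unstarved, 216, 214 and 212 CPM in Cys-starved and 303, 301 and 302 CPM in Thr-starved libraries. The Cys-starved libraries were the lowest for both. Eif3d fell by 0.53 with Cys starvation (adjusted p = 4.3e-13, SE 0.026) and Eif3e by 0.41 (adjusted p = 2.7e-12, SE 0.022), and the direct differences of Thr from Cys starvation were 0.59 and 0.50 (adjusted p = 6.1e-15 and 7.2e-15). With Thr starvation Eif3e rose by 0.09 (adjusted p = 0.0011, SE 0.022), and Eif3d missed the threshold (0.06, adjusted p = 0.056, SE 0.026) but passed it without unstarved replicate 2 (0.081) or Thr-starved replicate 1 (0.075). The exons of Eif3d overlap 2151 bases of Gm17638 on the other strand, and the strand setting of the counting is not given in the sources used here.

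Eif3g, a subunit that acts in scanning, was at 199, 200 and 196 CPM in unstarved, 214, 218 and 218 CPM in Cys-starved and 155, 152 and 150 CPM in Thr-starved libraries. Eif3h was at 249, 250 and 251 CPM in unstarved, 233, 243 and 235 CPM in Cys-starved and 280, 268 and 275 CPM in Thr-starved libraries. Each group was separate from the others for both genes, in opposite order. Eif3g rose by 0.13 with Cys (adjusted p = 0.00013, SE 0.023) and fell by 0.38 with Thr starvation (adjusted p = 2e-12, SE 0.023). Eif3h rose by 0.13 with Thr (adjusted p = 3.4e-05, SE 0.024) and fell by 0.08 with Cys starvation (adjusted p = 0.01, SE 0.024), a call lost without Cys-starved replicate 1 (-0.068), and 23.4% of its 43-base stretches occur in other genes.

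Eif3a, the largest subunit and the scaffold of the complex, rose in both, from 753, 761 and 760 CPM in unstarved to 822, 817 and 876 CPM in Cys-starved and 997, 992 and 967 CPM in Thr-starved libraries. The groups did not overlap, and the log2 fold changes were 0.15 (adjusted p = 1.6e-05, SE 0.022) and 0.38 (adjusted p = 7.2e-13, SE 0.022). Eif3c, another core subunit, rose likewise by 0.13 and 0.45 (adjusted p = 2.3e-05 and 3.8e-15). Eif3b, also of the core, fell by 0.09 with Cys and 0.34 with Thr starvation (adjusted p = 0.00086 and 3.8e-13), and Eif3f and Eif3i fell in both by 0.09 to 0.27, of which the Cys call of Eif3f was lost without unstarved replicate 2 (-0.064). Eif3j1 and Eif3j2 both rose by 0.30 with Thr starvation (adjusted p = 1e-08 and 4.6e-09), but 93.1% of the 43-base stretches of Eif3j2 and 51.9% of those of Eif3j1 occur in other genes, chiefly each other, so how reads were split between them is uncertain.

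**Figure D3:**
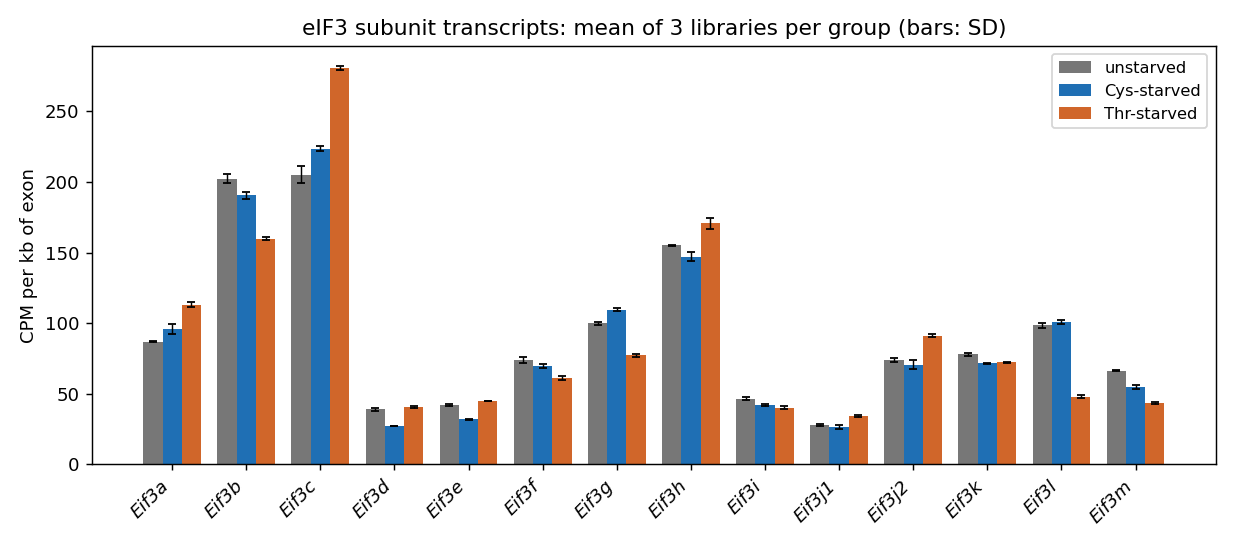
Mean CPM per kb of exon of the 14 eIF3 genes in unstarved, Cys-starved and Thr-starved libraries (bars from 0, error bars SD, n = 3). Eif3c is highest with Thr starvation (280), and Eif3l drops from 98.4 in unstarved to 47.8 in Thr-starved cells.

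Of the cap-binding and scaffold factors (6 genes), 2 rose, 2 fell and 2 were not called with Thr starvation, and none rose, 3 fell and 3 were not called with Cys starvation. Eif4g1, the main scaffold that joins eIF4E, eIF4A and eIF3, was at 1063, 1105 and 1069 CPM in unstarved, 957, 949 and 957 CPM in Cys-starved and 772, 766 and 774 CPM in Thr-starved libraries. Eif4g2, a relative of eIF4G1 that lacks the eIF4E-binding site, was at 1707, 1750 and 1696 CPM in unstarved, 1714, 1700 and 1702 CPM in Cys-starved and 2191, 2191 and 2200 CPM in Thr-starved libraries. Eif4g1 was lowest and Eif4g2 highest in the Thr-starved libraries, with no overlap with the other groups.

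Eif4g1 fell by 0.49 with Thr (adjusted p = 1.5e-16, SE 0.018) and 0.18 with Cys starvation (adjusted p = 4e-08, SE 0.017). Eif4g2 rose by 0.35 with Thr starvation (adjusted p = 1.3e-15, SE 0.014) and stood at -0.01 with Cys starvation (adjusted p = 0.63, SE 0.014), where the deposited size factors gave -0.052 and a call. Per kb of exon, the ratio of Eif4g2 to Eif4g1 was 1.14 to 1.15 in unstarved, 1.28 to 1.29 in Cys-starved and 2.04 to 2.06 in Thr-starved libraries. Eif4g3, the third scaffold gene, rose with Thr starvation (0.27, adjusted p = 6.7e-08, SE 0.031). Eif4e, which encodes the cap-binding protein itself, stood at -0.01 with Thr starvation (adjusted p = 0.74, SE 0.024) and fell by 0.13 with Cys starvation (adjusted p = 0.00017, SE 0.024). Eif4e2, a relative of eIF4E, fell by 0.09 with Cys starvation (adjusted p = 0.011), a call lost without Cys-starved replicate 1 (-0.074), and stood at -0.05 with Thr starvation (adjusted p = 0.093). Eif4e3, a minor cap-binding relative, had means of 1.36 CPM in unstarved and Cys-starved and 0.706 CPM in Thr-starved libraries, and fell by 0.93 with Thr starvation with a wide error (adjusted p = 0.0004, SE 0.21).

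All 5 genes of the eIF4A helicases and their cofactors were called with Thr starvation, 2 higher and 3 lower, and 1 higher and 2 lower with Cys starvation. Among genes that averaged 5 CPM or more, 80.6% were called with Thr and 55% with Cys starvation. Eif4a1, the main helicase that unwinds the mRNA leader, was at 1974, 1994 and 1985 CPM in unstarved, 1662, 1649 and 1621 CPM in Cys-starved and 1425, 1408 and 1417 CPM in Thr-starved libraries. Eif4a2, its paralog, was at 227, 206 and 232 CPM in unstarved, 231, 236 and 229 CPM in Cys-starved and 325, 326 and 324 CPM in Thr-starved libraries. The paralogs changed in opposite directions with Thr starvation, and for Eif4a2 the unstarved and Cys-starved libraries overlapped.

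Eif4a1 fell by 0.49 with Thr (adjusted p = 5e-18, SE 0.014) and 0.27 with Cys starvation (adjusted p = 2e-12, SE 0.014). Eif4a2 rose by 0.55 with Thr starvation (adjusted p = 4.7e-13, SE 0.031), and its value with Cys starvation of 0.06 (adjusted p = 0.12, SE 0.031) was called only without unstarved replicate 3 (0.097). The ratio of Eif4a1 to Eif4a2 per kb was 10.5 to 11.9 in unstarved, 8.59 to 8.87 in Cys-starved and 5.32 to 5.41 in Thr-starved libraries. Other genes hold 29.4% of the 43-base stretches of Eif4a1 and 15.5% of those of Eif4a2, which hosts several small nucleolar RNA genes.

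Eif4h and Eif4b encode cofactors that stimulate eIF4A, and they moved in opposite directions with Thr starvation. Eif4h (ENSMUSG00000040731, chr5:134619721-134639490) was at 342, 357 and 352 CPM in unstarved, 423, 414 and 417 CPM in Cys-starved and 535, 520 and 539 CPM in Thr-starved libraries, with no overlap between groups. It rose by 0.60 with Thr (adjusted p = 1.7e-16, SE 0.022) and 0.25 with Cys starvation (adjusted p = 4.7e-09, SE 0.022). Eif4b fell by 0.36 with Thr starvation (adjusted p = 3.1e-13, SE 0.020), from a mean of 748 to 584 CPM, and stood at -0.04 with Cys starvation (adjusted p = 0.086), which was called with the deposited size factors (-0.086), in the fit of only the 2 groups compared (-0.040) and without Thr-starved replicate 3 (-0.044). Eif4a3, a core protein of the exon junction complex, fell by 0.13 and 0.14 (adjusted p = 9.1e-05 and 9.6e-05).

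Among the eIF4E-binding proteins, Eif4ebp1, the mTORC1-controlled repressor of cap binding and a known target of ATF4, stood out. It was at 379, 390 and 374 CPM in unstarved, 490, 488 and 489 CPM in Cys-starved and 490, 498 and 483 CPM in Thr-starved libraries. Both starved groups were above the unstarved libraries and overlapped each other. It rose by 0.36 on the log2 scale with Thr (adjusted p = 5.3e-13, SE 0.021) and 0.36 with Cys starvation (adjusted p = 8e-12, SE 0.021), and the direct difference was 0.0 with an SE of 0.021 (adjusted p = 0.9). Of the 31 factors called with Cys starvation it had the largest increase. Eif4ebp2 fell by 0.28 with Thr starvation (adjusted p = 5.9e-09, SE 0.027) and stood at -0.06 with Cys starvation (adjusted p = 0.12), which was called with the deposited size factors (-0.098) or without unstarved replicate 1 (-0.079). Eif4enif1, which carries eIF4E into the nucleus and binds it in the cytoplasm, was called in neither starvation (-0.06 with Thr and 0.04 with Cys starvation, SE 0.034 each), although its Thr value was called without Thr-starved replicate 2 (-0.10). The ratio of Eif4ebp1 to Eif4e per kb was 4.94 to 5.00 in unstarved, 6.83 to 7.10 in Cys-starved and 6.32 to 6.50 in Thr-starved libraries.

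Eif5a, whose hypusine-bearing product helps ribosomes through elongation and termination, was the highest of all factors per kb of exon, at 602 CPM in unstarved cells. Its level was 1418, 1457 and 1415 CPM in unstarved, 1336, 1345 and 1330 CPM in Cys-starved and 1465, 1463 and 1489 CPM in Thr-starved libraries. The groups did not overlap, but the Thr-starved libraries exceeded the highest unstarved library by little. It fell by 0.10 with Cys starvation (adjusted p = 3.8e-05, SE 0.016) and rose by 0.04 with Thr starvation (adjusted p = 0.023, SE 0.016), a call lost without unstarved replicate 1 (0.040) or 3 (0.035) and without Thr-starved replicate 3 (0.034).

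Eif5a2, its less expressed paralog, was at 18.5, 20.6 and 19.2 CPM in unstarved, 23.7, 23.4 and 21.9 CPM in Cys-starved and 18.4, 18.8 and 19.7 CPM in Thr-starved libraries. The Cys-starved libraries were above all others, with a rise of 0.24 (adjusted p = 0.00064, SE 0.052), and the value with Thr starvation was -0.03 (adjusted p = 0.6, SE 0.053). Eif6, which keeps the ribosomal subunits apart, rose in both, by 0.24 with Thr (adjusted p = 1.8e-08, SE 0.025) and 0.12 with Cys starvation (adjusted p = 0.00053, SE 0.025).

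The ratios of paired factors, which do not depend on the scaling of a library, showed how far the composition of the family shifted. The pairs were chosen after the values were seen, so they are given as a description. The ratio of Eif1 to Eif5 per kb of exon was 3.09, 3.37 and 3.18 in unstarved, 6.73, 6.72 and 6.58 in Cys-starved and 8.56, 8.20 and 8.49 in Thr-starved libraries. It was higher in both starvations, through a lower Eif5 with Cys starvation and a higher Eif1 with Thr starvation. The ratio of Eif3l to its partner Eif3k was 1.25 to 1.28 in unstarved, 1.38 to 1.43 in Cys-starved and 0.644 to 0.671 in Thr-starved libraries.

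**Figure D4:**
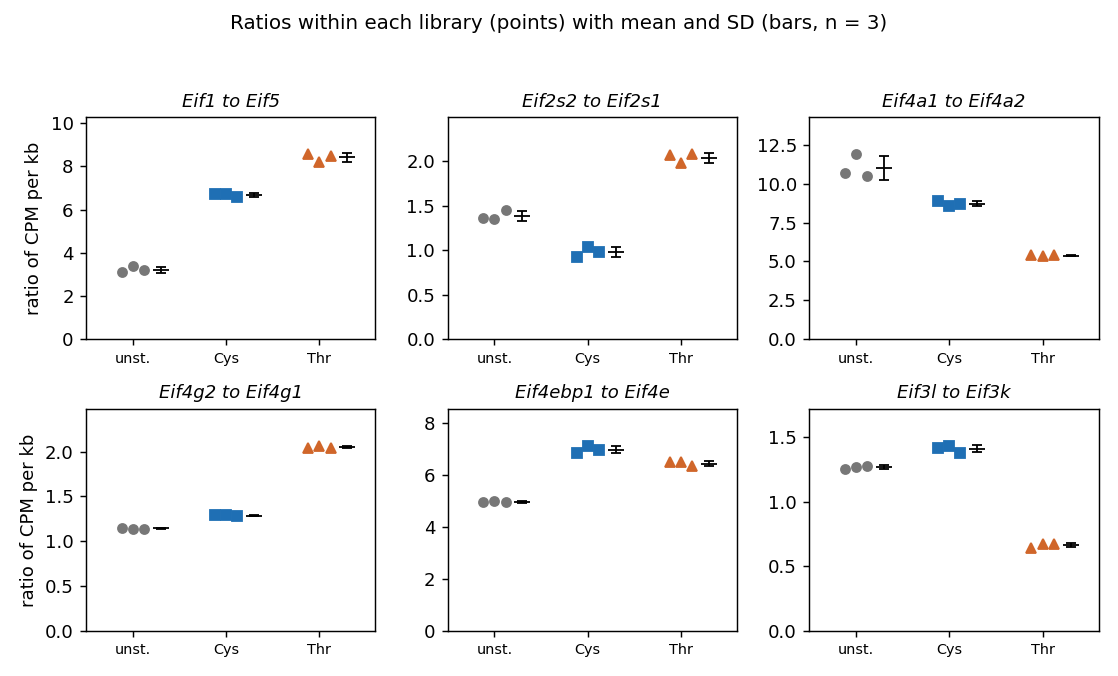
Ratios of CPM per kb of exon between 6 pairs of factors in each of the 9 libraries (points, with mean and SD of 3 libraries; y axes start at 0). The mean ratio of Eif1 to Eif5 is 3.22 in unstarved, 6.68 in Cys-starved and 8.42 in Thr-starved libraries, and the Eif4a1 to Eif4a2 ratio falls from 11 to 8.73 and 5.37.

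Genes outside the family that regulate initiation were read from a list of 25, all of them in the table. With Thr starvation 15 were higher and 5 lower, with a median log2 fold change of 0.14, and with Cys starvation 6 were higher and 10 lower, with a median of -0.01. These are 80.0% called with Thr and 64.0% with Cys starvation. Of all genes tested 63% and 36.3% were called, and of genes that averaged 5 CPM or more 80.6% and 55%. The largest increases with Thr starvation were those of Ddx3x (a helicase that helps ribosomes through structured leaders), by 0.94 (adjusted p = 4.4e-21, SE 0.019), and of Mcts2 (a retrocopy of Mcts1, with which it may share reads), by 0.66 (adjusted p = 3.5e-10, SE 0.055). Denr, which with Mcts1 recycles ribosomes and allows reinitiation, and Paip2b, which blocks the poly(A)-binding protein, each rose by 0.48 (adjusted p = 5.2e-13 and 3.7e-13). Mcts1 fell by 0.21 with Cys starvation (adjusted p = 0.0029) and rose by 0.12 with Thr starvation (adjusted p = 0.04), a call lost with the replicate block (0.13), without any 1 of the unstarved libraries (0.12 to 0.14) and without Thr-starved replicate 1 (0.13) or 3 (0.088).

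The largest decreases with Thr starvation were those of Mknk2 (a kinase of eIF4E), by 0.91 (adjusted p = 2.2e-16, SE 0.034), Pdcd4 (an inhibitor of eIF4A), by 0.54 (adjusted p = 1.9e-09, SE 0.050), and Cyfip1 (an eIF4E-binding repressor), by 0.23 (adjusted p = 5.6e-08). With Cys starvation Mknk2 fell by 0.12 (adjusted p = 0.0043), and Pdcd4 stood at -0.04 (adjusted p = 0.59). The genes most lowered by Cys starvation were Mcts2, by 0.37 (adjusted p = 2.3e-05, SE 0.058), Dohh (an enzyme that makes hypusine on eIF5A), by 0.33 (adjusted p = 7.9e-05, SE 0.058), and Bzw1, by 0.30 (adjusted p = 1.3e-09, SE 0.023). Bzw1 and Bzw2 encode mimics of eIF5 that compete with it for eIF2. Bzw2 fell by 0.29 with Cys starvation (adjusted p = 1.3e-09, SE 0.023), so both mimics and Eif5 were lower with Cys starvation. A link between these changes was not tested. With Thr starvation Bzw1 fell by 0.16 (adjusted p = 2e-06), and Bzw2 stood at 0.03 (adjusted p = 0.2). Rps6kb2 (an S6 kinase), Mknk1 (another eIF4E kinase) and Paip2b had the largest increases with Cys starvation, by 0.28, 0.25 and 0.20 (adjusted p = 0.0023, 0.00069 and 4e-06). Rps6kb2 and Mknk1 also rose with Thr starvation, by 0.41 and 0.22 (adjusted p = 1.7e-05 and 0.0013). Neither was called between the starvations (adjusted p = 0.1 and 0.62), but Rps6kb2 was with the deposited size factors (0.17) or without Thr-starved replicate 3 (0.18).

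Elongation and termination factors (14 of 14 in the table) included 5 higher and 8 lower with Thr starvation, and none higher and 8 lower with Cys starvation, with median log2 fold changes of -0.11 and -0.15. These are 92.9% called with Thr and 57.1% with Cys starvation. Of all genes tested 63% and 36.3% were called, and of genes that averaged 5 CPM or more 80.6% and 55%. Eef2k, the kinase that inactivates the elongation factor eEF2, fell by 0.99 with Thr starvation (adjusted p = 6.3e-13, SE 0.057), from a mean of 20.6 to 10.4 CPM, and stood at 0.0 with Cys starvation (adjusted p = 0.97, SE 0.052). Eef2 itself rose by 0.18 with Thr starvation (adjusted p = 4e-10, SE 0.015), Gspt2 (a release factor) by 0.44 (adjusted p = 5e-07, SE 0.057) and Eef1e1 (a subunit of the tRNA synthetase complex) by 0.26 (adjusted p = 1.2e-06, SE 0.036). Eef1d, an exchange subunit for eEF1A, fell by 0.49 with Thr and 0.22 with Cys starvation (SE 0.022 each, adjusted p = 1.1e-14 and 4.5e-08). Eef1a2, an isoform of eEF1A, fell by 0.99 with Thr starvation at a mean level of 1.06 CPM in unstarved cells (adjusted p = 0.0036, SE 0.28). With Cys starvation Gspt1 (a release factor) and Eefsec (the elongation factor for selenocysteine) fell by 0.20 and 0.19 (adjusted p = 1.6e-06 and 0.00086). Both also fell with Thr starvation, Gspt1 by 0.26 (adjusted p = 5.7e-09) and Eefsec by 0.13 (adjusted p = 0.012). The Eefsec call with Thr starvation was lost without unstarved replicate 2 (-0.096) and without Thr-starved replicate 1 (-0.097) or 3 (-0.11).

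**Figure D5:**
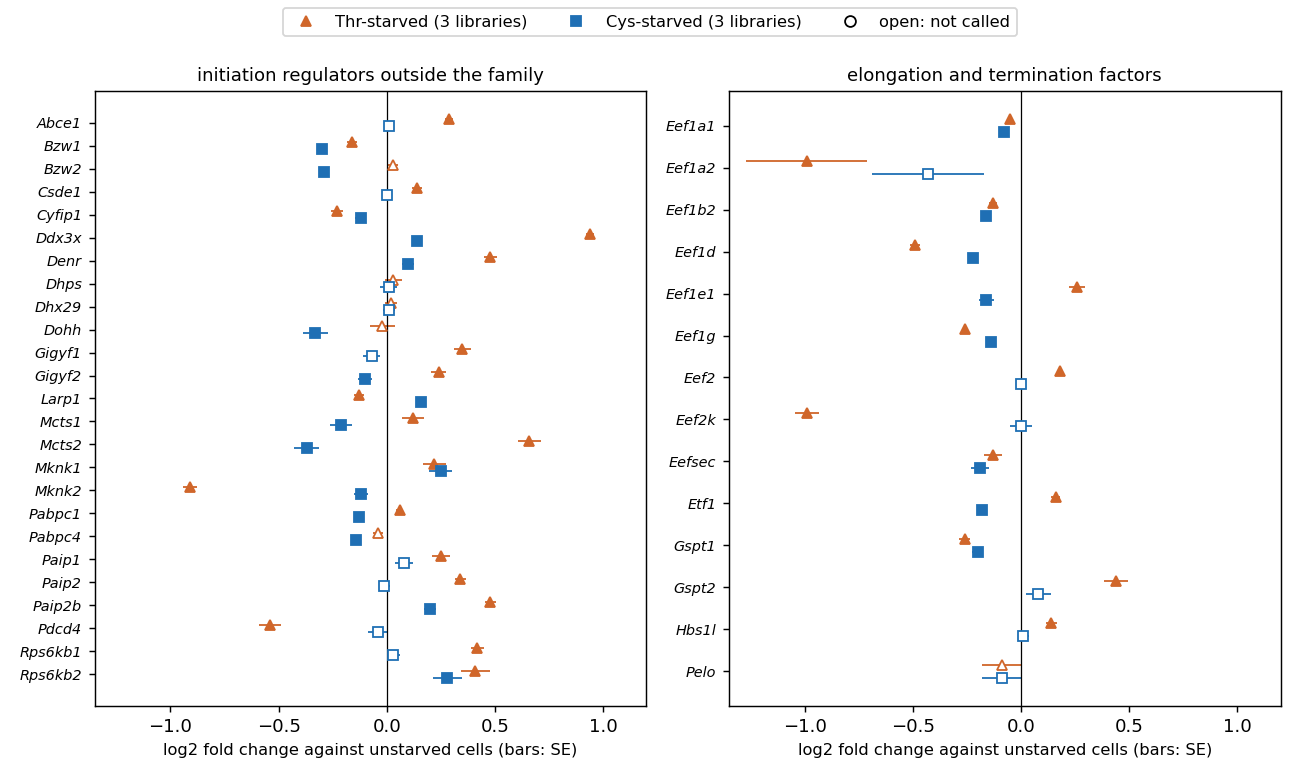
Log2 fold change against unstarved cells (x axis, bars SE, open symbols not called) for 25 regulators of initiation and 14 elongation and termination factors outside the family, with triangles for Thr-starved and squares for Cys-starved cells. Ddx3x at 0.94 and Mknk2 at -0.91 mark the range of the regulators with Thr starvation.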

How the data were processed

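Poly(A) RNA of 9 libraries (3 unstarved, 3 Cys-starved, 3 Thr-starved) was measured with a directional kit. The authors mapped the reads to GRCm38 with STAR 2.7.4a, used HTSeq to count them per gene, and these counts were deposited raw. Strand and overlap settings are not given in the sources used here, so reads of overlapping genes may be shared. The deposited companion table of signal values, in which each library was divided by 1 size factor (1.12 to 1.72), gave the scaling of an alternative. The paper describes scaling by DESeq2 size factors. These factors differ from those that DESeq2 gives for the 9 libraries alone. With Cys starvation the median log2 fold change of all genes was -0.035 with the deposited factors and 0.002 with DESeq2. How the deposited factors were derived is not given in the sources used here.

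All 20143 genes with at least 1 count were fitted in R 4.3.3 with edgeR 4.0.16 (TMM, quasi-likelihood F test, all 9 libraries in 1 fit, common biological coefficient of variation 3.53%), with two-sided p-values adjusted by Benjamini-Hochberg over all genes tested and called at 0.05. CPM are TMM-scaled. SE is the log2 fold change divided by the root of F. Self-tests ran on data simulated with the spread estimated from these same libraries and with far fewer changed genes, so they cannot check that spread. Replicate numbers come from the sample titles. Same-numbered libraries did not deviate together, with correlations of -0.244 to 0.106 over 11410 genes, so no block was used. The mean chi-square per gene between replicates was 1.98 to 2.13 in all 9 pairs, where sampling noise gives about 1 for single reads and about 2 if both reads of a pair were counted. No pair stood apart, and none was counted as a duplicate.

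The members, role groups, pathway and marker lists were chosen with earlier results of these data known. Values in every library are given for the 4 called members with the largest increase and decrease per comparison (mean of at least 5 CPM), those called in opposite directions, and the most abundant of each role group. From each pathway list, the 3 strongest called increases and decreases per starvation are named, with Bzw1, Bzw2, Pdcd4, Mknk2, Denr and Mcts1. Other genes were named after their values were seen, as was the comparison with genes of at least 5 CPM. Shared sequence was counted as stretches of 43 bases, the read length, in GENCODE M21 transcripts. Alternatives were DESeq2 1.42.0, other scaling, filters, thresholds, fits of 2 groups, a replicate block and each library left out.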

Additional observations from a re-analysis of the deposited data

Results flagged for a closer look

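For 8 factors the change against unstarved cells was called in opposite directions in Thr and Cys starvation, and the difference between the starvations was itself called by edgeR's quasi-likelihood test. Those higher with Thr than with Cys starvation were Eif2s2, by 0.91 on the log2 scale, Eif3e by 0.50, Eif2b3 by 0.26, Eif3h by 0.21 and Eif5a by 0.14. Those lower were Eif3g, with a difference of -0.51, Eif1ad with -0.34 and Eif2b1 with -0.30. Each of the 8 had separate CPM ranges in Thr and Cys starvation. The 8 were picked by calls made on the same values, so this separation is not independent evidence. The share of 65.8% with separate ranges among all genes tested, which were not picked, is no fair comparison for it. Of all genes tested 7.45%, and of genes that averaged 5 CPM or more 12.2%, were called in opposite directions and called between the starvations. These calls share the unstarved libraries, and the call with Thr starvation was lost without 1 library for Eif1ad, Eif2b3 and Eif5a, as was that with Cys starvation for Eif3h.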

How the results depend on the processing

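Of 1104 values of single named factors under the alternatives, 1073 kept their direction and their side of the threshold, 14 lost a call, 10 gained one and 7 changed sign. The 1104 include settings that leave out a library of the group not compared. Such settings hardly move a fold change, so the share kept overstates how stable the values are. The sign changes were all of values that were not called. With Cys starvation Eif1 gave 0.0078 without unstarved replicate 2 and 0.00016 without Cys-starved replicate 3 (range with 1 library left out -0.023 to 0.0078), Eif4g2 0.0027 without unstarved replicate 2 (range -0.019 to 0.0027) and Eif3l -0.0047 with the deposited size factors. With Thr starvation Eif5a2 gave 0.019 without unstarved replicate 2 (range -0.066 to 0.019). The direct difference of Eif4ebp1 was -0.0064 with a minimum of 10 counts in every library and -0.0078 without Thr-starved replicate 2 (range -0.0078 to 0.014). Counting only changes of 0.25 or more on the log2 scale left 13 factors higher and 11 lower with Thr starvation, 2 and 6 with Cys starvation, and 16 and 10 between the starvations. Of all genes tested, 24.5% and 25.4%, 9.86% and 6.86%, and 22% and 25.7% were called and changed as much, in the same order. The deposited size factors moved the median of the factors to -0.111 with Cys starvation and 0.141 between the starvations. With 1 library left out, 18 to 22 factors were higher and 17 to 21 lower with Thr starvation (median -0.053 to 0.009, positive without unstarved replicate 2), 9 to 10 and 20 to 25 with Cys starvation (median -0.077 to -0.048), and 24 to 25 and 15 to 18 between them (median 0.068 to 0.112).

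With the replicate block, 20 factors were higher and 19 lower with Thr starvation, 9 and 22 with Cys starvation, and 25 and 16 between them, losing the calls of Eif5 with Thr starvation and of Eif3i between the starvations. The numbers of the libraries did not pair them. The call of Eif5 with Thr starvation was also lost with RLE normalization (-0.052) and in the fit of only the 2 groups compared (-0.053), and Eif3d with Thr starvation was called with DESeq2 (0.065), RLE (0.064), filterByExpr (0.063) and the fit of only the 2 groups (0.063). The cause of these shifts was not tested, apart from the fewer libraries or stricter limits of the settings themselves. At about 1 CPM the error of Eif4e3 was wide.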

Other observations

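Some paralogs and partners of the factors shifted against each other in ways not described above, in pairs chosen after the values were seen and without a test. The ratio of Eif5a to Eif5a2 per kb of exon was 149 to 162 in unstarved, 119 to 129 in Cys-starved and 160 to 169 in Thr-starved libraries, so the Cys-starved libraries were below all others. The ratio of Eif1 to Eif1b was 8.68 to 9.03 in unstarved, 8.09 to 8.72 in Cys-starved and 10.7 to 10.9 in Thr-starved libraries, so it was higher in the Thr-starved libraries although both genes rose there. Eif2s2 to Eif2s3x, the β and γ subunits of eIF2, stood at 0.696 to 0.756 in unstarved, 0.484 to 0.526 in Cys-starved and 0.939 to 0.988 in Thr-starved libraries.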
